A study of Mus musculus with 9 samples.

Results

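The antioxidant genes driven by the transcription factor NRF2, together with the 2 classical metallothioneins, were followed in mouse skin after repeated ultraviolet B exposure. The members were 10 named genes, found by their symbols among 57180 genes of the deposited count table, and each symbol matched 1 row. They were Nfe2l2, which encodes NRF2, its targets Gclc, Gclm, Gsr, Txnrd1, Srxn1, Nqo1 and Hmox1, and Mt1 and Mt2. All 10 passed the filter on low counts that left 17168 genes for testing.

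NRF2 is held in the cytoplasm and marked for degradation by KEAP1. Oxidants and electrophiles modify KEAP1, NRF2 then accumulates and binds antioxidant response elements as a partner of small MAF proteins, and genes for glutathione synthesis, thiol reduction and quinone and heme breakdown are transcribed. Control thus acts largely on the protein, and the level of Nfe2l2 mRNA is not a measure of NRF2 activity. Metallothioneins are small cysteine-rich proteins that bind zinc and copper and react with radicals. Their genes are induced by metals through MTF1, by glucocorticoids and by oxidants, and in skin they are known to respond to ultraviolet light.

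The study measured RNA in 9 libraries of skin from BALB/c nude mice, an athymic strain that carries a Foxn1 mutation and has abnormal, sparse hair. In UVB_hCOL3A1 (n = 3) the back was irradiated on alternate days over 8 weeks and treated with hCOL3A1, which the series title ties to type III collagen delivered as mRNA. UVB_Saline (n = 3) had the same irradiation with saline, and NoUVB (n = 3) had none. The dose per exposure began at 60 mJ/cm2 (1 minimal erythemal dose) and ended at 240 mJ/cm2 (4 minimal erythemal doses). Skin was taken on day 28 by a count whose first day is left unstated. The sources used here do not give age, sex, the carrier or the route of treatment, and a group that received the carrier alone was not analysed here. Effects of irradiation and of saline cannot be told apart in UVB_Saline against NoUVB, nor can those of the carrier and of the collagen in UVB_hCOL3A1 against UVB_Saline. Animals are not identified for the libraries, so p-values cover only the variation among these libraries, part of which may be technical.

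Metallothionein promoters are shown first, since Mt1 and Mt2 are neighbours on chromosome 8 whose levels varied together from library to library while their ratio was higher in UVB_Saline than in the other groups. That ratio was chosen after its values were seen. In the RefSeq annotation of GRCm38.p6 the start of Mt1 lies 6471 bases downstream of the start of Mt2 on the same strand. Each sequence covers 250 bases before to 50 bases after the annotated start, and capitals mark the core of the metal response element, searched as TGCACNC or TGCGCNC on both strands.

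Mt1, chr8:94178839-94179138, plus strand: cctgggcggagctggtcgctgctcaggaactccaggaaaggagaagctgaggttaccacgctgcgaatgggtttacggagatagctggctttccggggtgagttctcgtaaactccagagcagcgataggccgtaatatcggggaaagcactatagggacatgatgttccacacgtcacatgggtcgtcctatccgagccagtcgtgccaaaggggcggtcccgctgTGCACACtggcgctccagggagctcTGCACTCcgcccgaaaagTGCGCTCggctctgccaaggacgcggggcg
Mt2, chr8:94172368-94172667, plus strand: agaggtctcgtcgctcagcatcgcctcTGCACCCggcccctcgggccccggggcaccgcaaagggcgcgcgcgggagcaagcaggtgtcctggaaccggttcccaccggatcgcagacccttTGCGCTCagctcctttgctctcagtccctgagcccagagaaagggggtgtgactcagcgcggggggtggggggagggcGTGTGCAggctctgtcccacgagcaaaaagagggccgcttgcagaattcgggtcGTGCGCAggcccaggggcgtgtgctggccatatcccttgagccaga

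Mt1 held 3 and Mt2 held 4 matches, and 1.97% of 32851 promoters of this length held at least 3. The core of the antioxidant response element, searched as TGACNNNGC on both strands, matched once in Mt2 as TGACTCAGC, from base -79 to base -71 relative to the start, and had no match within the printed Mt1 window. That core occurred in 12.4% of all promoters and the metal response core in 25.7%. For 7 of the 10 members 9 promoters were listed, and the antioxidant core was found in 5 of these 9 promoters. They belonged to Nfe2l2, Gclm, Txnrd1 (1 of its 3 listed promoters), Srxn1 and Mt2. Most members were chosen as NRF2 genes, so this share is a description only. The matches describe letters in these windows, not bound sites, and the core can also lie farther away. Bases outside the windows were not searched, so a gene without a match here may hold one nearby. Whether the matches bear on the ratio of Mt2 to Mt1 was not tested.

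Total estimated counts were 7640172 to 12927411 per library, and the share held by Rn18s-rs5, an 18S ribosomal RNA gene, was 34.3% to 55.3% in 8 libraries and 7.71% in NoUVB 2. Levels are given as counts per 1000000 (CPM) after scaling by the trimmed mean of M values (TMM). The epidermal keratin genes Krt5 (7388 to 14667 counts) and Krt14 (5128 to 21183 counts) and the dermal collagen gene Col1a1 (19709 to 40355 counts) were abundant in every library. Not every listed epidermal marker was abundant, with Lor at 192 to 551 counts and Krt2 at 0 to 18. UVB_Saline 3 and UVB_hCOL3A1 3 lay apart from the other 7 libraries on the first principal component, at 55 and 39.8 against -33.5 to 10, and values without them are given where they move a result.

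No antioxidant or metallothionein gene passed in any of the 3 comparisons. In UVB_Saline against NoUVB 0 of the 10 members were called by edgeR at an adjusted p of 0.05, where 0.0175% of all 17168 genes were called. In UVB_hCOL3A1 against UVB_Saline the members called were also 0, where 0% of all genes were called. In UVB_hCOL3A1 against NoUVB they were 0 again, where 0.0408% of all genes were called. At an unadjusted p of 0.05 the members counted 0 in each comparison, against 9.54%, 11.3% and 11.8% of all genes in the same order. DESeq2 and limma voom called 0 members as well, with no DESeq2 adjusted p for Nqo1 in UVB_hCOL3A1 against UVB_Saline. At an unadjusted p of 0.05 DESeq2 counted 0 members in each comparison, and limma voom counted 1 in UVB_hCOL3A1 against NoUVB and 0 in the other comparisons.

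The size of change left possible was limited in the edgeR fit of all libraries. In UVB_Saline against NoUVB the 95% interval of the log2 difference stayed within a 2-fold change either way for all 10 members, and within 1.5-fold for 5. For UVB_hCOL3A1 against UVB_Saline the same held for 9 and 6 members, and for UVB_hCOL3A1 against NoUVB for 9 and 3 members. The gene beyond the 2-fold bound was Nqo1 in both comparisons. Mt2 came close to the bound in UVB_hCOL3A1 against UVB_Saline, where its interval began at -0.999. Interval widths depend on the fit, as the standard error of Nqo1 in UVB_Saline against NoUVB was 0.356 with edgeR and 0.479 with DESeq2. Median log2 differences of the 10 members were -0.01, 0.09 and 0.07 in the order above, beside medians over all genes tested of 0.01, -0.02 and -0.01. The comparisons share groups, so they are not independent of each other.

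**Figure D1:**
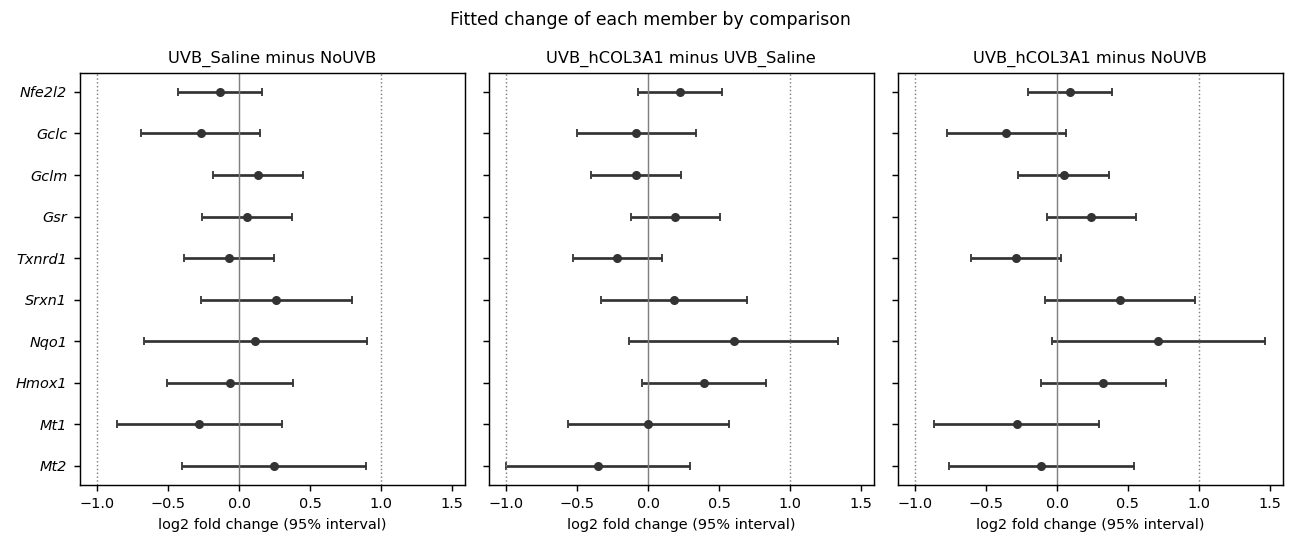
Fitted log2 fold change of each member with its 95% interval, in 3 panels for UVB_Saline minus NoUVB, UVB_hCOL3A1 minus UVB_Saline and UVB_hCOL3A1 minus NoUVB; dotted lines mark a 2-fold change. Every interval includes 0, and Nqo1 has the widest, reaching 1.34 and 1.46 in the UVB_hCOL3A1 panels.

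Nfe2l2 itself (ENSMUSG00000015839) was a moderately expressed gene with little spread. Its levels were 46.0, 44.6 and 54.1 CPM in UVB_hCOL3A1, 37.1, 38.9 and 47.8 CPM in UVB_Saline and 43.7, 40.5 and 51.7 CPM in NoUVB. Replicate 3 was the highest in every group, and the 3 groups overlapped. The log2 difference was 0.22 ± 0.13 (SE) for UVB_hCOL3A1 against UVB_Saline (edgeR adjusted p = 0.563), -0.14 ± 0.13 for UVB_Saline against NoUVB (adjusted p = 0.798) and 0.09 ± 0.13 for UVB_hCOL3A1 against NoUVB (adjusted p = 0.837).

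Genes that act on NRF2 were examined next. Of 14 listed regulators, which include the NRF2 inhibitor Keap1, the competing repressor Bach1 and the small MAF partners, 13 were tested, and edgeR called 0 in each comparison. Their median log2 difference was 0.00 in UVB_Saline against NoUVB, 0.03 in UVB_hCOL3A1 against UVB_Saline and 0.05 in UVB_hCOL3A1 against NoUVB. Keap1 differed by 0.18 ± 0.15 between UVB_Saline and NoUVB (adjusted p = 0.768) and by 0.03 ± 0.15 between UVB_hCOL3A1 and UVB_Saline (adjusted p = 0.967). The regulators with the smallest p were Sqstm1 and Mafg, both in UVB_hCOL3A1 against UVB_Saline. Sqstm1, an autophagy adaptor that binds KEAP1, averaged 70.9 ± 8.25 CPM in UVB_hCOL3A1 and 54.6 ± 10.5 CPM in UVB_Saline (SD, n = 3 each; log2 difference 0.38 ± 0.15, edgeR adjusted p = 0.396). Mafg, a small MAF protein, averaged 24.1 ± 2.83 CPM in UVB_hCOL3A1 and 29.0 ± 0.737 CPM in UVB_Saline (log2 difference -0.27 ± 0.12, edgeR adjusted p = 0.426).

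**Figure D2:**
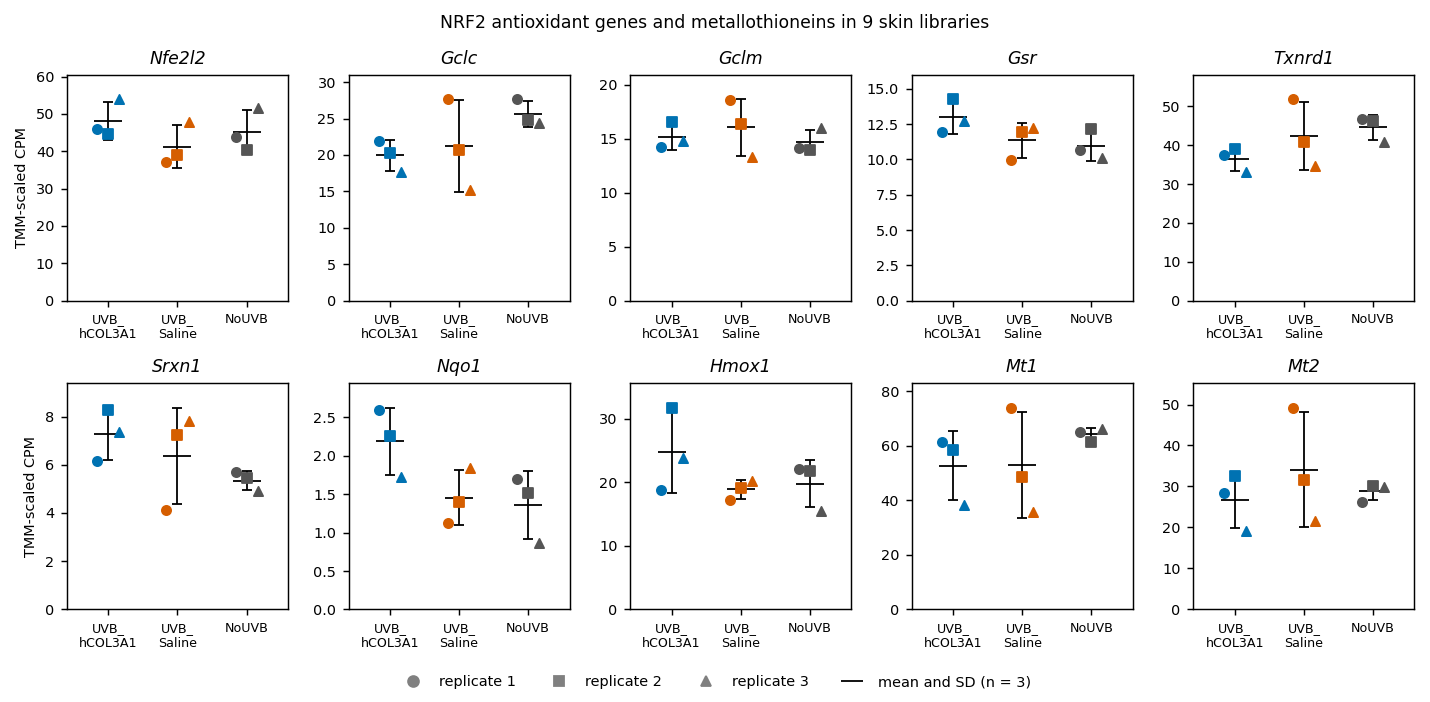
TMM-scaled CPM of the 10 members in each library, by group (UVB_hCOL3A1, UVB_Saline, NoUVB); marker shapes show the replicate number and bars the mean and SD of 3 libraries. UVB_hCOL3A1 and NoUVB do not overlap for 5 of the 10 members, while the other pairs of groups overlap for all 10. The spread of Mt1 in UVB_Saline, 35.9 to 74.1 CPM, is far wider than in NoUVB, 61.6 to 66.3 CPM.

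Glutathione synthesis depends on glutamate-cysteine ligase, whose catalytic subunit is Gclc (ENSMUSG00000032350) and whose modifier subunit is Gclm (ENSMUSG00000028124). Gclc stood at 21.9, 20.3 and 17.7 CPM in UVB_hCOL3A1, 27.7, 20.7 and 15.2 CPM in UVB_Saline and 27.7, 24.8 and 24.4 CPM in NoUVB. All UVB_hCOL3A1 libraries lay below all NoUVB libraries, while UVB_Saline covered the range of both and more. The log2 difference was -0.36 ± 0.19 for UVB_hCOL3A1 against NoUVB (edgeR adjusted p = 0.498), -0.27 ± 0.19 for UVB_Saline against NoUVB (adjusted p = 0.698) and -0.08 ± 0.19 for UVB_hCOL3A1 against UVB_Saline (adjusted p = 0.911). Without UVB_Saline 1 this last value was 0.15, without UVB_Saline 3 it was -0.25 and without UVB_hCOL3A1 3 it was 0.02. UVB_Saline against NoUVB was -0.51 without UVB_Saline 1 and -0.09 without UVB_Saline 3, and UVB_hCOL3A1 against NoUVB was -0.26 without UVB_hCOL3A1 3.

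Gclm had 14.3, 16.6 and 14.8 CPM in UVB_hCOL3A1, 18.6, 16.4 and 13.3 CPM in UVB_Saline and 14.2, 13.9 and 16 CPM in NoUVB, with all groups overlapping. Its log2 differences lay between -0.08 and 0.13, with edgeR adjusted p values of 0.825 and above. Estimated counts of Gclm were not whole in 7 of 9 libraries, as happens where reads are divided between genes. The annotation places Gm17494 on the opposite strand and the processed pseudogene Gm6061 within the Gclm locus, at 11.1 to 26.4 and 0 to 27.1 estimated counts per library against 100 to 199 for Gclm.

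Both subunits come from the same library, so their ratio does not depend on scaling. The ratio of Gclc to Gclm counts was 1.54, 1.23 and 1.2 in UVB_hCOL3A1, 1.49, 1.26 and 1.14 in UVB_Saline and 1.95, 1.79 and 1.53 in NoUVB. All UVB_Saline libraries lay below all NoUVB libraries (mean log2 difference -0.44, exact two-sided permutation p = 0.1, the smallest that 3 against 3 libraries allow). UVB_hCOL3A1 was above NoUVB in 1 of 9 library pairs (mean log2 difference -0.41, exact permutation p = 0.2) and lay at the level of UVB_Saline (0.03, exact permutation p = 0.9). This ratio and that of Mt2 to Mt1 were chosen after their values were seen. How often ratios of other genes separate the groups was not counted. No conclusion is therefore drawn from the separation of either ratio or from their permutation p values.

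Gsr (ENSMUSG00000031584) encodes glutathione reductase, which regenerates reduced glutathione with NADPH. It had 12, 14.3 and 12.7 CPM in UVB_hCOL3A1, 9.96, 11.9 and 12.2 CPM in UVB_Saline and 10.7, 12.1 and 10.1 CPM in NoUVB. UVB_hCOL3A1 was on average the highest group, and it overlapped both others. Log2 differences were 0.24 ± 0.14 against NoUVB (edgeR adjusted p = 0.543) and 0.19 ± 0.14 against UVB_Saline (adjusted p = 0.651), and UVB_Saline differed from NoUVB by 0.05 ± 0.14 (adjusted p = 0.942).

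Among 45 other listed genes of glutathione synthesis, transport and use, 40 were tested and edgeR called 0 in each comparison. Their median log2 difference was -0.02 in UVB_Saline against NoUVB, 0.02 in UVB_hCOL3A1 against UVB_Saline and 0.07 in UVB_hCOL3A1 against NoUVB. The smallest p values belonged to Abcc3 and Glrx5. Abcc3, a transporter that exports conjugates, had 11.4, 9.78 and 10.4 CPM in UVB_hCOL3A1, against 5.11, 4.55 and 8.08 CPM in NoUVB (log2 difference 0.82 ± 0.21, edgeR adjusted p = 0.184). Glrx5, a mitochondrial glutaredoxin of iron-sulfur cluster assembly, had 11.2, 11.6 and 10.6 CPM in UVB_hCOL3A1 and 12.5, 10.2 and 10.1 CPM in UVB_Saline, against 6.96, 8.48 and 7.41 CPM in NoUVB. Both irradiated groups lay wholly above NoUVB for Glrx5, at log2 differences of 0.54 ± 0.15 (edgeR adjusted p = 0.202) and 0.51 ± 0.15 (adjusted p = 0.353).

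NADPH, which Gsr and Txnrd1 consume, is supplied by enzymes of the pentose phosphate pathway and by malic and isocitrate dehydrogenases. Of 16 listed genes, with Nnt present in 2 rows, 17 rows were tested and edgeR called 0 in each comparison. The rows had a median log2 difference of -0.11 in UVB_Saline against NoUVB and 0.13 in UVB_hCOL3A1 against UVB_Saline. In UVB_hCOL3A1 against NoUVB the median was 0.13. Tkt, a transketolase, averaged 84.3 ± 14.2 CPM in UVB_hCOL3A1 and 65.3 ± 6.86 CPM in UVB_Saline (log2 difference 0.37 ± 0.15, edgeR adjusted p = 0.412). Me2, a mitochondrial malic enzyme, averaged 11.2 ± 0.680 CPM in UVB_hCOL3A1 and 9.10 ± 0.736 CPM in UVB_Saline (0.30 ± 0.13, adjusted p = 0.426).

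Txnrd1 (ENSMUSG00000020250), the cytosolic thioredoxin reductase, measured 37.4, 39.1 and 33.0 CPM in UVB_hCOL3A1, 51.9, 40.8 and 34.7 CPM in UVB_Saline and 46.7, 46.3 and 40.9 CPM in NoUVB. Its UVB_hCOL3A1 libraries all lay below its NoUVB libraries, at a log2 difference of -0.29 ± 0.14 (edgeR adjusted p = 0.471). Against UVB_Saline the difference was -0.22 ± 0.14 (adjusted p = 0.610), and between UVB_Saline and NoUVB it was -0.07 ± 0.14 (adjusted p = 0.915). Without UVB_Saline 3 the last value was 0.05, and without UVB_Saline 1 it was -0.24. UVB_hCOL3A1 against UVB_Saline was -0.05 without UVB_Saline 1 and -0.13 without UVB_hCOL3A1 3. Eid3, a gene within the annotated span of Txnrd1 on the same strand, held 35 to 81 counts per library, against 306 to 518 for Txnrd1.

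Srxn1 (ENSMUSG00000032802) encodes sulfiredoxin, which repairs overoxidised peroxiredoxins. It had 6.18, 8.28 and 7.34 CPM in UVB_hCOL3A1, 4.11, 7.23 and 7.81 CPM in UVB_Saline and 5.68, 5.45 and 4.91 CPM in NoUVB. Levels in UVB_hCOL3A1 were all above those in NoUVB, with a log2 difference of 0.44 ± 0.24 (edgeR adjusted p = 0.509), while UVB_Saline 1 was the lowest of all libraries. UVB_Saline differed from NoUVB by 0.26 ± 0.24 (adjusted p = 0.783) and UVB_hCOL3A1 from UVB_Saline by 0.18 ± 0.23 (adjusted p = 0.822), which became -0.05 without UVB_Saline 1 and 0.36 without UVB_Saline 3. UVB_Saline against NoUVB was 0.49 without UVB_Saline 1, 0.15 without UVB_Saline 2 and 0.09 without UVB_Saline 3. With 40 to 88 counts per library, this gene is measured less closely than Txnrd1.

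The 21 listed thioredoxin, peroxiredoxin, sestrin and methionine sulfoxide reductase genes were all tested, and edgeR called 0 in each comparison. As a list they had a median log2 difference of 0.12 in UVB_Saline against NoUVB and -0.01 in UVB_hCOL3A1 against UVB_Saline. In UVB_hCOL3A1 against NoUVB the median was 0.09. Txnip, an inhibitor of thioredoxin that also follows glucose, averaged 233 ± 59.9 CPM in UVB_Saline and 357 ± 49.2 CPM in NoUVB (log2 difference -0.61 ± 0.17, edgeR adjusted p = 0.353). UVB_hCOL3A1 also lay wholly below NoUVB for Txnip (-0.46 ± 0.17, edgeR adjusted p = 0.348). Between UVB_hCOL3A1 and UVB_Saline, which overlapped, Txnip differed by 0.15 ± 0.17 (edgeR adjusted p = 0.786). Msrb3, a methionine sulfoxide reductase, had 37.3, 48.1 and 38.9 CPM in UVB_hCOL3A1, 30.4, 29.1 and 27.1 CPM in UVB_Saline and 36.5, 37.8 and 36.9 CPM in NoUVB. Every UVB_Saline library lay below every library of the other groups for Msrb3. Its log2 difference was 0.52 ± 0.11 for UVB_hCOL3A1 against UVB_Saline (edgeR adjusted p = 0.202), a difference that DESeq2 called, and -0.36 ± 0.11 for UVB_Saline against NoUVB (edgeR adjusted p = 0.367). Among all genes DESeq2 called 125 as higher in UVB_hCOL3A1 against UVB_Saline. Superoxide and peroxide removal was covered by 9 further genes with no call. Their medians were -0.19, 0.14 and 0.07 in UVB_Saline against NoUVB, UVB_hCOL3A1 against UVB_Saline and UVB_hCOL3A1 against NoUVB. The list was led by Ccs, the copper chaperone of Sod1. Ccs had 4.94 ± 0.766 CPM in UVB_hCOL3A1 and 3.19 ± 0.177 CPM in NoUVB (log2 difference 0.63 ± 0.20, edgeR adjusted p = 0.265). UVB_Saline, at 4.42 ± 0.447 CPM, also lay wholly above NoUVB for Ccs (0.47 ± 0.20, edgeR adjusted p = 0.510). Between UVB_hCOL3A1 and UVB_Saline, Ccs differed by 0.17 ± 0.19 (edgeR adjusted p = 0.793). Sod1 itself, the cytosolic superoxide dismutase, averaged 26.4 ± 5.29 CPM in UVB_hCOL3A1 and 17.9 ± 4.32 CPM in UVB_Saline (0.55 ± 0.22, adjusted p = 0.398).

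Nqo1 (ENSMUSG00000003849), the quinone reductase that is often used to read NRF2 activity, was close to the limit of measurement here. It had 34, 24 and 16 counts in UVB_hCOL3A1, 11, 17 and 17 in UVB_Saline and 12, 17 and 9 in NoUVB. Scaled, these were 2.59, 2.26 and 1.73 CPM in UVB_hCOL3A1, 1.13, 1.40 and 1.84 CPM in UVB_Saline and 1.70, 1.52 and 0.866 CPM in NoUVB. UVB_hCOL3A1 lay above NoUVB in every library, by a narrow margin, and overlapped UVB_Saline. The log2 difference was 0.71 ± 0.34 against NoUVB (edgeR adjusted p = 0.447) and 0.60 ± 0.33 against UVB_Saline (adjusted p = 0.529), with 95% intervals of -0.04 to 1.46 and -0.13 to 1.34. UVB_Saline against NoUVB stood at 0.11 ± 0.36 (adjusted p = 0.950), and at -0.15 without NoUVB 3, which also left 0.47 for UVB_hCOL3A1 against NoUVB.

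Hmox1 (ENSMUSG00000005413), the inducible heme oxygenase, is also made by macrophages that take up red cells. It had 18.8, 31.8 and 23.9 CPM in UVB_hCOL3A1, 17.2, 19.2 and 20.3 CPM in UVB_Saline and 22.2, 21.8 and 15.5 CPM in NoUVB. UVB_hCOL3A1 2 was the highest library and the groups overlapped. Log2 differences were 0.39 ± 0.20 for UVB_hCOL3A1 against UVB_Saline (edgeR adjusted p = 0.488), 0.33 ± 0.20 for UVB_hCOL3A1 against NoUVB (adjusted p = 0.560) and -0.07 ± 0.20 for UVB_Saline against NoUVB (adjusted p = 0.948). Without UVB_hCOL3A1 2 the first was 0.17 and the second 0.11, and without UVB_hCOL3A1 1 they were 0.585 and 0.51. Without NoUVB 3 the second was 0.185 and the third -0.23. The summed level of 12 macrophage markers was 632 to 938 CPM in UVB_hCOL3A1, 296 to 767 CPM in UVB_Saline and 505 to 513 CPM in NoUVB. The part of these cells in the level of Hmox1 was not tested. In bulk tissue, fewer cells of a type and less RNA per cell cannot be told apart.

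Of 17 other genes of heme breakdown and iron handling 16 were tested, and edgeR called 0. These had a median log2 difference of -0.03 in UVB_Saline against NoUVB and 0.15 in UVB_hCOL3A1 against UVB_Saline. In UVB_hCOL3A1 against NoUVB the median was 0.14. Ftl1, the ferritin light chain that stores the iron heme oxygenase sets free, had 323, 354 and 331 CPM in UVB_hCOL3A1, 173, 280 and 308 CPM in UVB_Saline and 206, 224 and 205 CPM in NoUVB. All UVB_hCOL3A1 libraries lay above all other libraries. Estimated counts of Ftl1 were not whole in any library, as happens where reads are divided between genes. The log2 difference of UVB_hCOL3A1 was 0.67 ± 0.18 against NoUVB (edgeR adjusted p = 0.201, called by DESeq2) and 0.41 ± 0.18 against UVB_Saline (edgeR adjusted p = 0.428). Among all genes DESeq2 called 181 as higher in UVB_hCOL3A1 against NoUVB. Aco1, the cytosolic aconitase that doubles as an iron sensor, averaged 47.7 ± 7.53 CPM in UVB_hCOL3A1 and 34.1 ± 1.80 CPM in UVB_Saline (log2 difference 0.48 ± 0.12, edgeR adjusted p = 0.226).

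Detoxification genes related to Nqo1 numbered 30 on the list, of which 29 were in the table and 27 were tested and edgeR called 0. Median log2 differences of the 27 were -0.06, 0.12 and 0.16 in UVB_Saline against NoUVB, UVB_hCOL3A1 against UVB_Saline and UVB_hCOL3A1 against NoUVB. Differences were above 0 for 12, 19 and 17 of them in that order, beside 51.8%, 46.1% and 49.2% of all genes. In UVB_Saline against NoUVB and UVB_hCOL3A1 against UVB_Saline, Aox4 and Ces2g below went against most of the list. Aox4, an aldehyde oxidase of skin and its glands, had 20.4, 21.4 and 25.4 CPM in UVB_hCOL3A1, 47.2, 44.3 and 33.5 CPM in UVB_Saline and 17.3, 12 and 19.9 CPM in NoUVB. The 3 groups did not overlap, with UVB_Saline highest. Estimated counts of Aox4 were likewise not whole in any library. DESeq2 called Aox4 in UVB_Saline against NoUVB and in UVB_hCOL3A1 against UVB_Saline, where edgeR gave adjusted p values of 0.0891 (log2 difference 1.35 ± 0.20) and 0.202 (-0.90 ± 0.19). Ces2g, a carboxylesterase, averaged 16.3 ± 5.82 CPM in UVB_Saline and 7.57 ± 0.472 CPM in NoUVB (log2 difference 1.1 ± 0.27, edgeR adjusted p = 0.302), and DESeq2 called it as well. Among all genes DESeq2 called 35 as higher in UVB_Saline against NoUVB and 48 as lower in UVB_hCOL3A1 against UVB_Saline. This list too was chosen with earlier results of these data known.

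Mt1 (ENSMUSG00000031765) and Mt2 (ENSMUSG00000031762) varied more within irradiated skin than between groups. Mt1 had 61.5, 58.6 and 38.2 CPM in UVB_hCOL3A1, 74.1, 48.6 and 35.9 CPM in UVB_Saline and 65.1, 61.6 and 66.3 CPM in NoUVB. Unirradiated libraries lay close together, UVB_Saline reached both above and below them, and in UVB_hCOL3A1 libraries 1 and 2 lay slightly below them and library 3 far below. Log2 differences were -0.28 ± 0.26 for UVB_Saline against NoUVB (edgeR adjusted p = 0.782), -0.28 ± 0.26 for UVB_hCOL3A1 against NoUVB (adjusted p = 0.715) and 0.00 ± 0.25 for UVB_hCOL3A1 against UVB_Saline (adjusted p = 1), with a 95% interval of -0.57 to 0.57 for the last. UVB_Saline against NoUVB was -0.60 without UVB_Saline 1 and -0.08 without UVB_Saline 3. UVB_hCOL3A1 against NoUVB was -0.08 without UVB_hCOL3A1 3, and UVB_hCOL3A1 against UVB_Saline was 0.32 without UVB_Saline 1 and -0.19 without UVB_Saline 3.

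Mt2 had 28.4, 32.5 and 19.2 CPM in UVB_hCOL3A1, 49.3, 31.6 and 21.5 CPM in UVB_Saline and 26.3, 30.2 and 29.9 CPM in NoUVB. UVB_Saline 1 was the highest library and the 3 groups overlapped. Its log2 differences were 0.24 ± 0.29 for UVB_Saline against NoUVB (edgeR adjusted p = 0.834), -0.35 ± 0.29 for UVB_hCOL3A1 against UVB_Saline (adjusted p = 0.688) and -0.11 ± 0.29 for UVB_hCOL3A1 against NoUVB (adjusted p = 0.920). Without UVB_Saline 1 the first was -0.12 and the second 0.01, and without UVB_Saline 3 they were 0.48 and -0.57.

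The level of Mt2 relative to Mt1 was higher in every UVB_Saline library than in any other. The ratio of Mt2 to Mt1 counts was 0.461, 0.554 and 0.502 in UVB_hCOL3A1, 0.664, 0.650 and 0.599 in UVB_Saline and 0.403, 0.490 and 0.452 in NoUVB. All UVB_Saline libraries lay above all libraries of the other groups, including UVB_Saline 3, in which both genes were low. The mean log2 difference was 0.51 for UVB_Saline against NoUVB and -0.34 for UVB_hCOL3A1 against UVB_Saline, each with an exact two-sided permutation p of 0.1, the smallest that 3 against 3 libraries allow. Across single libraries left out it was 0.44 to 0.58 and -0.41 to -0.27. UVB_hCOL3A1 and NoUVB overlapped (0.17, exact permutation p = 0.2). This ratio was chosen after its values were seen, and how often ratios of other genes separate the groups was not counted. No conclusion is therefore drawn from the separation or from these permutation p values.

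Counts of Mt2 were not whole in 9 of 9 libraries, as happens where reads are divided between genes, and the annotation places Gm45774 on the opposite strand there. With its counts added to those of Mt2 the ratio was 0.480, 0.568 and 0.520 in UVB_hCOL3A1, 0.676, 0.687 and 0.625 in UVB_Saline and 0.428, 0.510 and 0.523 in NoUVB. UVB_Saline still lay above both other groups.

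**Figure D3:**
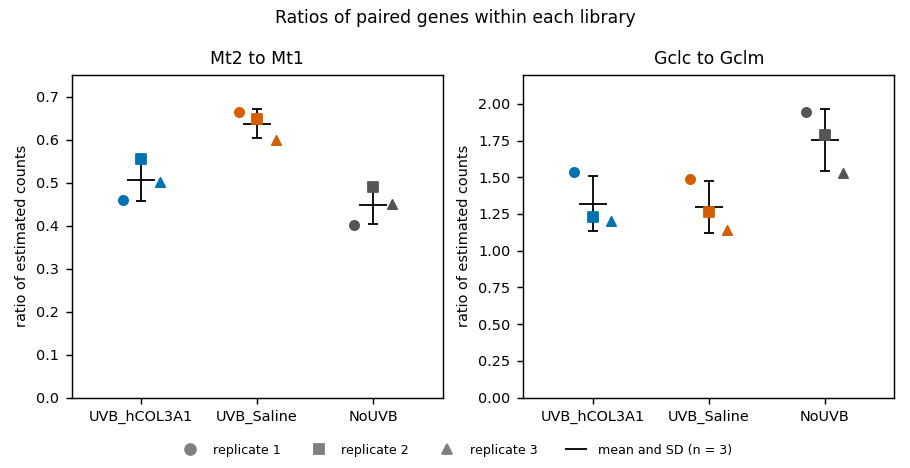
Ratio of estimated counts of Mt2 to Mt1 and of Gclc to Gclm in each library, by group (UVB_hCOL3A1, UVB_Saline, NoUVB), with the mean and SD of 3 libraries. UVB_Saline sits at 0.599 to 0.664 for Mt2 to Mt1, above the other groups, and at 1.14 to 1.49 for Gclc to Gclm, below NoUVB. Both ratios were chosen after their values were seen.

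Metal handling showed no call. Of 29 listed genes, which include the metal sensor Mtf1, the zinc exporter Slc30a1 and further zinc and copper transporters, 25 were tested, with medians of -0.05, -0.06 and 0.02 for UVB_Saline against NoUVB, UVB_hCOL3A1 against UVB_Saline and UVB_hCOL3A1 against NoUVB. Mtf1 differed by -0.03 ± 0.10 between UVB_Saline and NoUVB (edgeR adjusted p = 0.952), and Slc30a1, itself a target of MTF1, by -0.12 ± 0.38 (adjusted p = 0.950). Mt4, a metallothionein of stratified epithelium, was sparse, with 8, 6 and 2 counts in UVB_hCOL3A1, 22, 17 and 3 in UVB_Saline and 23, 16 and 16 in NoUVB. UVB_hCOL3A1 lay wholly below NoUVB for Mt4 (log2 difference -2.05 ± 0.65, edgeR adjusted p = 0.266). Steap3, a metalloreductase, averaged 30.2 ± 4.62 CPM in UVB_hCOL3A1 and 18.8 ± 4.36 CPM in UVB_Saline (0.69 ± 0.19, adjusted p = 0.260).

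Glucocorticoid-responsive genes, a class to which Mt1 and Mt2 also belong, were listed as 15 genes and all were tested. The list was chosen with earlier results of these data known. Its counts are therefore a description, and no test of the list as a set was made. In UVB_Saline against NoUVB 14 of 15 had a negative log2 difference (median -0.57), as had 48.2% of all genes, and for 9 the groups did not overlap, with UVB_Saline lower, where 6.61% of all genes were lower without overlap. In UVB_hCOL3A1 against NoUVB 12 of 15 were negative (median -0.43), as were 50.8% of all genes, and 9 were lower without overlap, where 10.7% of all genes were. Between UVB_hCOL3A1 and UVB_Saline, 10 of 15 were higher in UVB_hCOL3A1 (median 0.13), as were 46.1% of all genes. Only Zbtb16, a zinc finger factor put on the list with its earlier result known, was called by edgeR, as lower in UVB_Saline. It had 16.4, 17.6 and 14.9 CPM in UVB_Saline, against 52.1, 44.8 and 61.7 CPM in NoUVB, while UVB_hCOL3A1 lay between them at 24.9, 32 and 37.8 CPM (UVB_Saline against NoUVB, log2 difference -1.70 ± 0.17, edgeR adjusted p = 0.0167). DESeq2 called 6 of the 15 as lower in UVB_Saline and 6 as lower in UVB_hCOL3A1, both against NoUVB, where it called 0.411% and 0.566% of all genes as lower.

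Groups of members without overlap were found in 1 comparison. In UVB_hCOL3A1 against NoUVB 5 of 10 members did not overlap, with Srxn1 and Nqo1 higher and Gclc, Txnrd1 and Mt1 lower, where 21.4% of all genes did not overlap, 10.7% in either direction alone. Mt1 was separated only by the margin between 61.5 and 61.6 CPM. In UVB_Saline against NoUVB and in UVB_hCOL3A1 against UVB_Saline the count was 0, where 13.8% and 17.3% of all genes did not overlap. Log2 differences were above 0 for 5, 6 and 6 of the 10 members in UVB_Saline against NoUVB, UVB_hCOL3A1 against UVB_Saline and UVB_hCOL3A1 against NoUVB, beside 51.8%, 46.1% and 49.2% of all genes. The 7 enzymes among them had 4, 4 and 5 such differences in the same order.

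Library to library variation divided the members into sets. Gclc, Txnrd1, Mt1 and Mt2 were high in UVB_Saline 1 and low in UVB_Saline 3 and UVB_hCOL3A1 3, while Srxn1 and Gsr had their lowest level in UVB_Saline 1. Over the 9 libraries the Pearson coefficient of log2 CPM was 0.930 between Gclc and Mt1, 0.894 between Gclc and Txnrd1, 0.783 between Mt1 and Mt2 and 0.873 between Gsr and Srxn1, but -0.820 between Gclc and Srxn1. These coefficients describe 9 libraries that share scaling and group, and no test was made. The coefficient of variation was larger in UVB_Saline than in NoUVB for 8 of 10 members, where this held for 59.1% of all genes. It was larger in UVB_hCOL3A1 than in UVB_Saline for 1 of 10, where this held for 39% of all genes, and larger in UVB_hCOL3A1 than in NoUVB for 7 of 10, where this held for 49.5%.

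**Figure D4:**
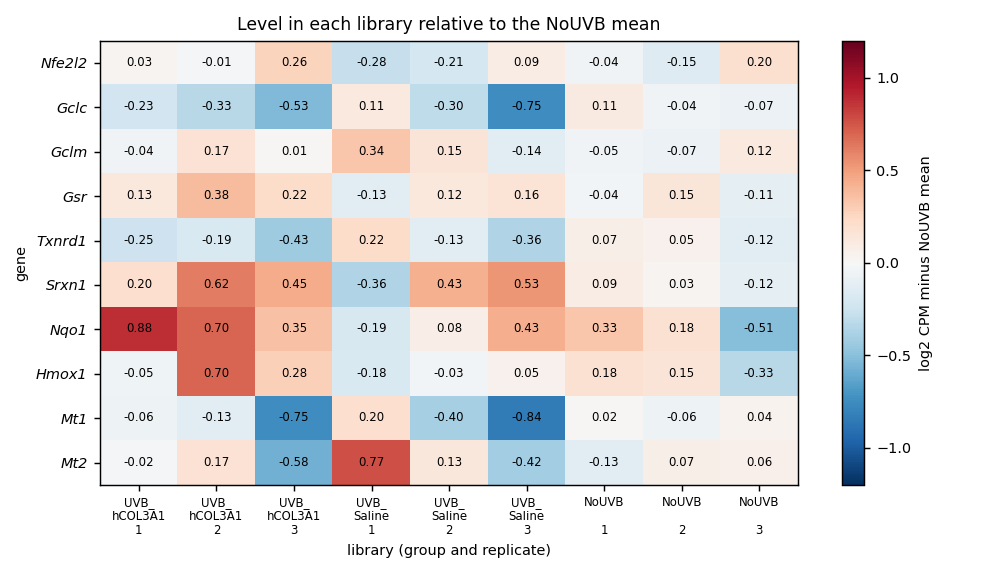
Log2 CPM of each member in each library minus the mean of the NoUVB libraries, with columns ordered UVB_hCOL3A1, UVB_Saline and NoUVB. Gclc, Mt1 and Txnrd1 are low in UVB_hCOL3A1 3 and UVB_Saline 3 (Mt1 at -0.75 and -0.84), and Srxn1 is high in both (0.45 and 0.53).

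Hair follicle markers were low in the same 2 libraries as Gclc and Mt1. The summed level of 12 hair follicle genes was 1910, 2095 and 763 CPM in UVB_hCOL3A1, 3274, 1737 and 415 CPM in UVB_Saline and 3341, 2985 and 1838 CPM in NoUVB, so the libraries lowest in Mt1 and Gclc, UVB_Saline 3 and UVB_hCOL3A1 3, were also lowest in hair genes. The other libraries did not keep that order, since NoUVB 3 had the lowest hair sum and the highest Mt1 of its group. Every one of these genes was detected in every library. The 12 macrophage markers, also all detected, were highest in replicate 3 of each irradiated group, at 632, 749 and 938 CPM in UVB_hCOL3A1, 296, 530 and 767 CPM in UVB_Saline and 505, 513 and 508 CPM in NoUVB. The summed level of 10 stress keratin and alarmin genes was highest in UVB_Saline 3, at 3784 CPM, against 497 to 990 CPM in the other libraries. Fibroblast markers summed to 7187.5 to 8627 CPM in UVB_hCOL3A1 and 5627.5 to 6047.1 CPM in UVB_Saline. Adipocyte markers summed to 1123.9 to 1844 CPM in UVB_hCOL3A1 and 634.64 to 963.36 CPM in UVB_Saline. For skeletal muscle markers the sums were 960.27 to 1595.9 and 246.65 to 806.09 CPM. Sums of the other listed cell types, epidermis included, overlapped between these groups. Whether these cell makeups set the levels of the members was not tested. With UVB_Saline 3 and UVB_hCOL3A1 3 both left out, Mt1 stood at -0.01 in UVB_hCOL3A1 against UVB_Saline and Txnrd1 at 0.05 in UVB_Saline against NoUVB, and 0 members were called in any comparison.

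**Figure D5:**
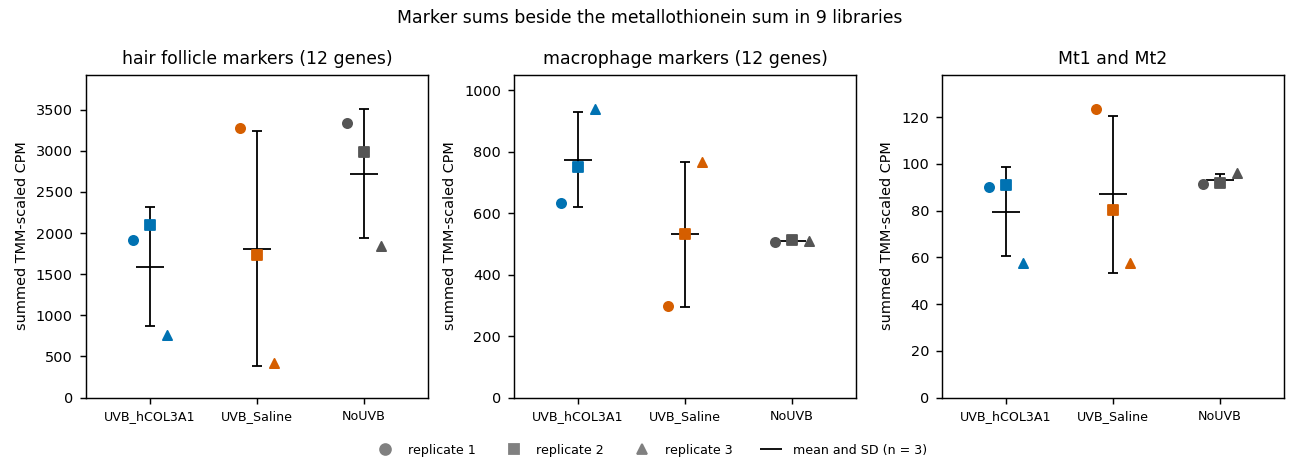
Summed TMM-scaled CPM of 12 hair follicle markers, 12 macrophage markers and the pair Mt1 and Mt2 in each library, by group (UVB_hCOL3A1, UVB_Saline, NoUVB), with the mean and SD of 3 libraries. Replicate 3 of each irradiated group is the lowest of its group for hair follicle markers and for the metallothionein sum (57.4 and 57.3 CPM) and the highest for macrophage markers.

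Genes whose pattern over the 9 libraries was most like that of a member were sought among 12793 named genes. The highest Pearson coefficients for Mt1 were with Egfr, the epidermal growth factor receptor (0.986), and Dlx4 (0.980), and for Gclc with Csnk1e (0.985) and Cpm (0.981). Txnrd1 was most like Slc39a6, a zinc importer (0.980), and Pcdh7 (0.980), and Mt2 most like Purb (0.968) and Ptpn4 (0.967). Gsr was most like the matrix genes Fn1 (0.956) and Lama2 (0.952), Srxn1 like Tor3a (0.963) and Itgb3 (0.962), and Hmox1 like Carhsp1 (0.986) and Cul7 (0.966). Nfe2l2 was most like Cyth3 (0.959) and Git2 (0.953), Gclm like Adgrl2 (0.927) and Prkar2a (0.920), and Nqo1 like Ehd1 (0.963) and Hspa13 (0.911). With so many genes and 9 libraries, high coefficients arise readily, and they are given as a description with no test.

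Levels were compared between genes after dividing CPM by transcript length. Mt1 was the highest member in each group, at 96.1, 96.3 and 117 CPM per kilobase in UVB_hCOL3A1, UVB_Saline and NoUVB, followed by Mt2 at 52.2, 66.7 and 56.3 CPM per kilobase. Nfe2l2 came next at 19.5, 16.7 and 18.3 CPM per kilobase. Hmox1 (15.8, 12 and 12.6 CPM per kilobase) and Txnrd1 (10.3, 12 and 12.6) followed, and their ranges overlapped in UVB_Saline and NoUVB but not in UVB_hCOL3A1. Below them stood Gclc at 5.83, 6.19 and 7.49 and Gsr at 4.86, 4.26 and 4.10 CPM per kilobase, which overlapped in both irradiated groups and not in NoUVB. Gclm (2.72, 2.88 and 2.63 CPM per kilobase) and Srxn1 (2.58, 2.27 and 1.90) likewise overlapped in both irradiated groups. Nqo1 was the lowest in each group, at 1.41, 0.938 and 0.877 CPM per kilobase. Ranges of Mt1 and Mt2 overlapped in UVB_Saline, and those of Nfe2l2 and Hmox1 in UVB_hCOL3A1.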

How the data were processed

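RNA of mouse skin was measured in 9 libraries, 3 each of UVB_hCOL3A1, UVB_Saline and NoUVB, grouped by the sample titles. Per the labels' protocols, TRIzol was used to isolate total RNA, and sequencing gave 150 bp read pairs. Per the submitters' processing notes, the build was GRCm39 and the tools were RSEM 1.3.3, STAR 2.7.11b, DESeq2 1.44.0, Bowtie2 2.5.4 and fastp 0.23.4. What each tool did, the annotation and any use of strand are not stated there, so antisense partners cannot be told apart.

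The authors deposited estimated counts for 57180 genes, of which 525 (0.0384% of counts) have no symbol; 11.1% to 14.0% of values per library were not whole, and values were rounded before testing. Library pairs within a group differed by a chi-square per degree of freedom of 8.95 to 269, and pairs across groups by 8.13 to 209, with Rn18s-rs5 included. Each library was counted as 1 replicate, and these values cannot show that libraries came from separate animals.

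In R 4.3.3, edgeR 4.0.16 fitted all 3 groups together by quasi-likelihood with robust dispersion after filterByExpr and TMM scaling. Tests were two-sided with Benjamini-Hochberg adjustment over 17168 genes, and 0.05 was the threshold. Adjusted p values come from edgeR except where stated. Log2 CPM used a prior count of 2. Intervals are 95% from the fit. Alternatives used DESeq2 1.42.0, limma 3.58.1 voom, other scalings and filters, a replicate block, and libraries left out. Transcript lengths and overlaps came from GENCODE M21 (GRCm38) and promoters from RefSeq (GRCm38.p6), another build than that of the counts. The test was checked on simulated data.

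The members and gene lists were chosen with earlier results of these data known. All members were named, and from each of 9 pathway lists the genes called by edgeR, or else the 2 with the smallest unadjusted p over the 3 comparisons; Keap1, Mtf1 and Slc30a1 were named for their roles. For each member the 2 most alike genes with a mean log2 CPM of at least 1 were named, predicted genes left out.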

Additional observations from a re-analysis of the deposited data

How the results depend on the processing

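Under 20 alternatives, 0 members were called in any comparison, and the lowest adjusted p was 0.176, for Gclc in UVB_hCOL3A1 against NoUVB when only these groups were fitted. Counts of all genes called did depend on the processing; in the order UVB_Saline against NoUVB, UVB_hCOL3A1 against UVB_Saline and UVB_hCOL3A1 against NoUVB they were 3, 0 and 7 as reported, 100, 30 and 159 with library size alone, 73, 106 and 178 without a filter, 96, 173 and 269 with DESeq2, and 5, 26 and 91 without UVB_Saline 3 and UVB_hCOL3A1 3. With the replicate block they were 61, 74 and 118. The labels do not say whether same-numbered libraries share more than a number. Their deviations from group means correlated over genes at 0.0181 to 0.41, and those of differently numbered libraries at -0.389 to 0.257. A pairing was not tested. The last comparison gave 1 with limma voom, 1 with non-robust dispersion and 407 when only its groups were fitted. Leaving out single libraries gave 0 to 12, 0 to 78 and 0 to 242. The cause was not tested.

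Small log2 differences changed sign. With library size alone, which moved the median of all genes to -0.121 in UVB_hCOL3A1 against NoUVB, the members' median there was -0.0391, Nfe2l2 -0.0152 and Gclm -0.0629, while Gsr was -0.0294 in UVB_Saline against NoUVB and Mt1 -0.0787 in UVB_hCOL3A1 against UVB_Saline. Mt1 in that comparison was also -0.000258 with a filter of 1 CPM in 3 libraries and -0.00249 without ribosomal genes. Without UVB_Saline 3 and UVB_hCOL3A1 3, an alternative chosen after seeing the data, it was -0.00621, UVB_Saline against NoUVB gave -0.0128 for Gsr, 0.0468 for Txnrd1 and -0.0865 for Nqo1, and Mt2 was 0.0905 in UVB_hCOL3A1 against NoUVB. Leaving out single libraries gave -0.0201 to 0.137 for Gsr, -0.239 to 0.046 for Txnrd1, -0.154 to 0.262 for Nqo1, -0.23 to 0.00917 for Hmox1 and -0.116 to 0.476 for Mt2 in UVB_Saline against NoUVB. In UVB_hCOL3A1 against UVB_Saline it gave -0.251 to 0.151 for Gclc, -0.178 to 0.0295 for Gclm, -0.0513 to 0.363 for Srxn1, -0.193 to 0.322 for Mt1 and -0.572 to 0.00746 for Mt2, and -0.00268 to 0.18 for the members' median. In UVB_hCOL3A1 against NoUVB it gave -0.0196 to 0.121 for Gclm and -0.272 to 0.0916 for Mt2. Values that kept their sign with single libraries left out were -0.264 to -0.041 for Nfe2l2, -0.507 to -0.0918 for Gclc, 0.0174 to 0.237 for Gclm, 0.0911 to 0.494 for Srxn1 and -0.603 to -0.0767 for Mt1 in UVB_Saline against NoUVB, 0.155 to 0.364 for Nfe2l2, 0.105 to 0.274 for Gsr, -0.321 to -0.0469 for Txnrd1, 0.458 to 0.816 for Nqo1 and 0.172 to 0.585 for Hmox1 in UVB_hCOL3A1 against UVB_Saline, and 0.0155 to 0.205 for Nfe2l2, -0.414 to -0.264 for Gclc, 0.168 to 0.33 for Gsr, -0.339 to -0.205 for Txnrd1, 0.336 to 0.565 for Srxn1, 0.47 to 0.886 for Nqo1, 0.107 to 0.509 for Hmox1 and -0.392 to -0.0828 for Mt1 in UVB_hCOL3A1 against NoUVB. Where 1 library of a group was left out, the spread was pooled over all groups. Depth limits Nqo1 most, at 9 to 34 counts per library.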
